A study of Homo sapiens with 18 samples.

Results

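Sphingolipid enzymes were examined in A549 cells, an established line from a human lung adenocarcinoma, after treatment with Ludox silica nanoparticles (NPs). The set holds 10 genes that make, phosphorylate, break down or divert sphingosine and ceramide: SPHK1, SPHK2, SGPP1, SGPP2, SGPL1, ASAH1, CERK, UGCG, SPTLC2 and ACER1. Members were every probe of these genes on the array, excluding control spots, taken by the gene name in the scanner files. Of 41000 probes with 30484 different entries for the gene name, 15 carried the name of one of 9 of the genes, and 12 of them passed the filter on dim spots. ACER1 was present only under its older symbol ASAH3, with 1 probe, and is given apart.

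The cells received 0.02 mg/mL NPs for 2 h in medium without serum and then recovered in complete medium. The 6 groups of 3 arrays were SM30 (9 nm) after 3 h of recovery, AS30 (18 nm) after 3 h and AS30 after 22 h, and for each of these a control group that went through the same steps without NPs. The methods call the letters A, B and C biological replicates, and nothing in the labels ties a treated letter to the control of the same letter beyond the letter itself. All cells were of 1 line, and particle size, particle product and control set changed together between SM30 and AS30.

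Ceramide is the centre of sphingolipid metabolism. It is built from serine and a fatty acyl chain, can be turned into sphingomyelin, glucosylceramide or ceramide 1-phosphate, and is cut by ceramidases to sphingosine. Sphingosine kinases then make sphingosine 1-phosphate (S1P), a lipid that signals through receptors at the cell surface and is removed by phosphatases or by a lyase. Ceramide is known as a stress and death signal in many cells, airway epithelium included, and S1P as a survival and motility signal.

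On these arrays UGCG, the glucosyltransferase that makes glucosylceramide from ceramide, was higher in all 3 SM30 arrays than in all 3 controls with both of its probes, at 2.48-fold and 2.11-fold, and 1 of these probes was also called 3 h after AS30, at 1.86-fold. CERK, the kinase that makes ceramide 1-phosphate, was called after SM30 with 1 of 2 probes, at 1.48-fold. ASAH1, the acid ceramidase of lysosomes, was called 22 h after AS30 at 2.09-fold. SPHK1, the first sphingosine kinase, had mean ratios of 2.19-fold after SM30, 1.70-fold 3 h after AS30 and 2.38-fold 22 h after AS30, and none of the 3 passed the threshold. A probe is called when its limma p, adjusted over every tested probe by Benjamini-Hochberg, is under 0.05.

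Epithelial and A549 markers fitted the labelled line, as probes of KRT8, KRT18, AKR1B10, AKR1C1, NQO1, CDH1 and EPCAM were well above background on 18 of 18 arrays, apart from 1 KRT18 probe at 13 of 18. PTPRC (leukocytes) and PECAM1 (endothelium) were well above background on 0 of 18 arrays, while CD68 (macrophages, a protein of lysosomal membranes) and COL1A1 (fibroblasts) were so on 18. CD68 read higher in all treated than in all control arrays of each set, with means of 9.86 against 8.90 after SM30, 10.19 against 9.22 at 3 h after AS30 and 11.08 against 9.41 at 22 h. CDH1 means were 10.34 against 10.72, 8.33 against 9.38 and 8.33 against 9.79 in the same order, with overlapping arrays at 3 h after AS30 and at 22 h. COL1A1 means were 7.61 against 7.11, 7.81 against 6.99 and 6.48 against 6.97. The part of these markers in the results was not tested. The reference genes ACTB, with 4 probes, and GAPDH were well above background on all 18 arrays. The share of spots well above background was 69.0 to 72.4% after SM30 against 65.5 to 69.9% in its controls, 62.5 to 67.1% against 52.4 to 61.9% for AS30 at 3 h, and 56.9 to 67.0% against 51.9 to 58.4% for AS30 at 22 h. It was higher in all treated than in all control arrays only at 3 h after AS30, and its part in the results was not tested. The 3 AS30 arrays of 3 h lay on 1 slide and their 3 controls on another, SM30 A shared a slide with the SM30 controls but SM30 B and C did not, and AS30 22 h C shared a slide with its own control C. The number of arrays limits the precision. In RNA from a bulk culture, fewer cells that express a gene and less RNA of it per cell cannot be told apart.

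SPHK1 phosphorylates sphingosine and is the inducible isoform of the pair. Its only probe lies on chromosome 17 of build hg18, at chr17:71895336-71895395 on the forward strand, and was well above background on all 18 arrays. All levels below are log2 normalised intensities, and they compare arrays for 1 probe, never 1 probe with another. SPHK1 read 10.08, 10.10 and 10.14 in SM30 controls A, B and C and 11.13, 11.42 and 11.16 in the SM30 arrays. It read 10.54, 10.65 and 11.74 in the AS30 controls of 3 h and 11.20, 12.31 and 11.73 in the treated arrays. It read 9.73, 10.12 and 10.76 in the AS30 controls of 22 h and 11.50, 11.17 and 11.69 in the treated arrays. Treated and control arrays did not overlap after SM30 or 22 h after AS30, whereas at 3 h after AS30 the control of letter C was as high as its treated partner.

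**Figure D1:**
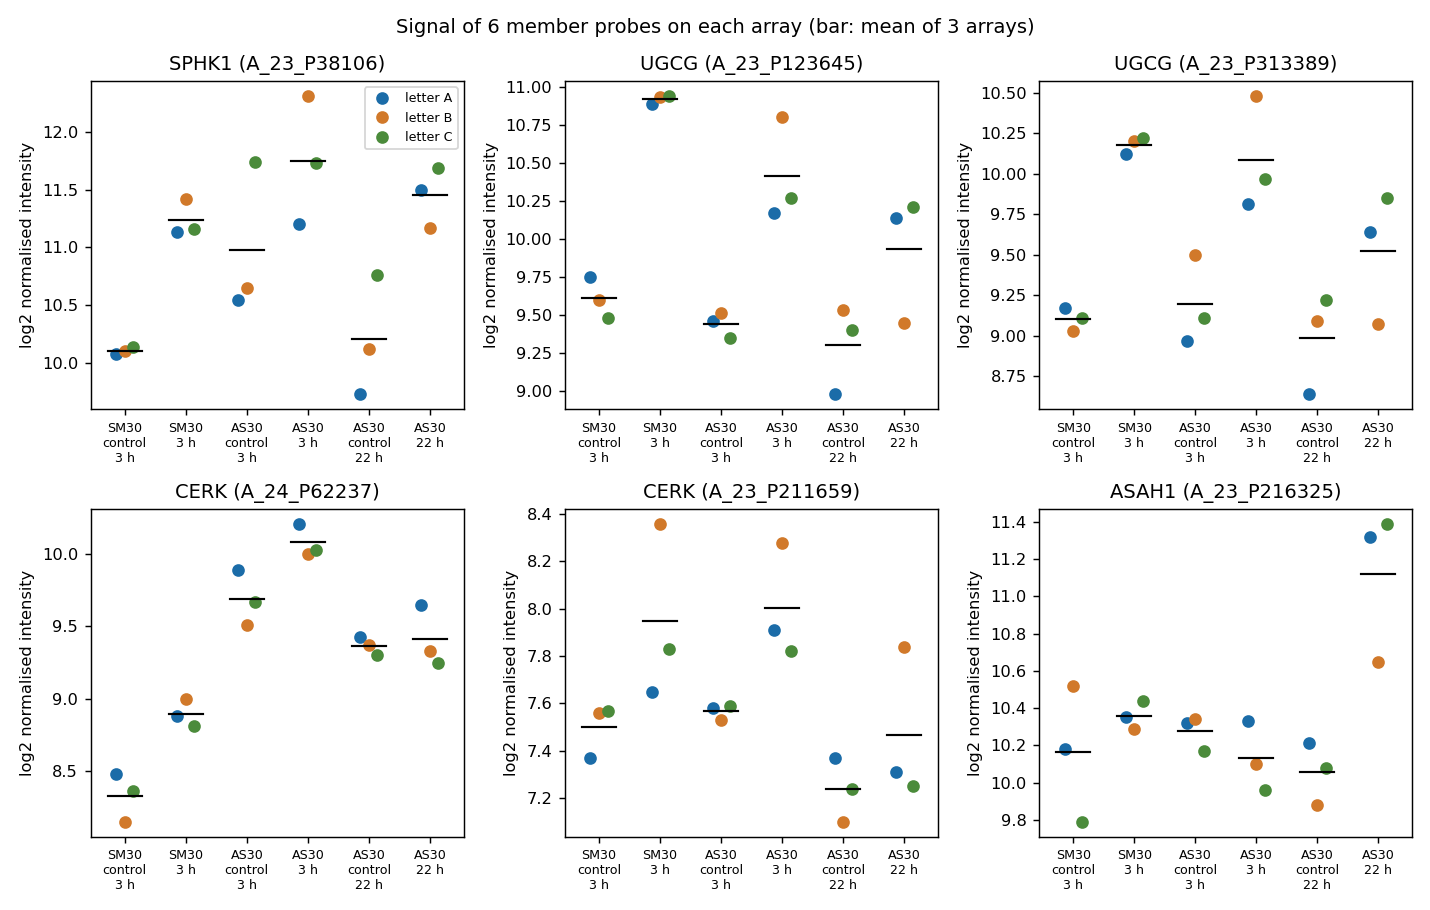
Log2 normalised intensity (vertical axis) of 6 probes of SPHK1, UGCG, CERK and ASAH1 in the 6 groups (horizontal axis), with 1 point for each array coloured by its letter and a bar at the mean of 3 arrays. The UGCG points of the 3 SM30 arrays lie at 10.89 to 10.94 and 10.12 to 10.22, above all controls, and ASAH1 stands apart only in the AS30 arrays of 22 h.

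Set in order of the mean level ± SD (n = 3), SPHK1 stood at 11.75 ± 0.557 in AS30 at 3 h, 11.45 ± 0.266 in AS30 at 22 h, 11.24 ± 0.160 in SM30, 10.98 ± 0.663 in the AS30 controls of 3 h, 10.20 ± 0.521 in the AS30 controls of 22 h and 10.11 ± 0.029 in the SM30 controls. Each neighbouring pair in this order had overlapping arrays. The SM30 controls were the tightest group and the AS30 controls of 3 h the widest.

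The log2 ratio of SPHK1 over its controls was 1.13 after SM30 (95% interval 0.48 to 1.79, limma adjusted p = 0.0504), and the 3 letters gave 1.05, 1.33 and 1.02. Letter A is the pair whose arrays shared a slide, and its ratio lay between those of letters C and B. The part of the slides was not tested. At 3 h after AS30 the ratio was 0.77 (0.11 to 1.42, limma adjusted p = 0.156), with letters at 0.66, 1.66 and -0.01. At 22 h after AS30 it was 1.25 (0.60 to 1.91, limma adjusted p = 0.0531), with letters at 1.77, 1.05 and 0.93. Letter C of that set shared a slide with its control. Of all probes tested, 2.80%, 6.20% and 1.59% had a higher ratio than SPHK1 in the 3 responses in that order.

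The 22 h response minus the 3 h response of SPHK1 to AS30 was 0.48 (-0.44 to 1.41, limma adjusted p = 0.600), and the SM30 response minus the AS30 response at 3 h was 0.36 (-0.56 to 1.29, limma adjusted p = 0.703). Both intervals hold 0 and reach past 1 on the log2 scale. In the controls alone, SPHK1 was 0.87 lower on the log2 scale in the SM30 set than in the AS30 set of 3 h (limma adjusted p = 0.0633), and 0.78 lower at 22 h than at 3 h in the AS30 sets (limma adjusted p = 0.283).

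The 5 genes whose probes followed SPHK1 most closely over the 18 arrays, out of 23029 probes measured on every array, were RTN2 (Pearson r = 0.958), C1orf26 (0.946), RAB32 (0.941), BVES (0.941) and CRYAB (0.940). Inside the groups, after each group's mean was taken off, the r values were 0.942, 0.849, 0.919, 0.857 and 0.931 in the same order. The arrays share groups and slides, so these values describe likeness only. Of the members, the UGCG probes had r of 0.751 and 0.626 with SPHK1 over the same arrays, SPHK2 had 0.036 and SGPP1 -0.12. The CERK probes had 0.538 and 0.526, the SGPL1 probes 0.559 and -0.247, ASAH1 0.313 and the SPTLC2 probes -0.029 and -0.082.

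The promoter stretches of the 2 members with the largest mean ratios after SM30, SPHK1 and UGCG, are shown, both with treated arrays wholly above controls there. They are the 250 bases before a RefSeq transcript start on build GRCh38.p14, on the forward strand, read 5′ to 3′. Capitals mark matches on either strand to the AP-1 motif TGANTCA or the Sp1 motif GGGCGG. RefSeq gives 3 starts for SPHK1, and the one shown, chr17:76385028-76385277, is the only one of the 3 with an AP-1 match. UGCG is shown at chr9:111896564-111896813.
SPHK1: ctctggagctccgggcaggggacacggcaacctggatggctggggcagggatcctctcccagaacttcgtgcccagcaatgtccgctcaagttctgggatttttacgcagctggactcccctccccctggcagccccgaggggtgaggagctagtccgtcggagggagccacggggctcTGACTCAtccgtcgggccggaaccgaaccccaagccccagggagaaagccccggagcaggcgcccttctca
UGCG: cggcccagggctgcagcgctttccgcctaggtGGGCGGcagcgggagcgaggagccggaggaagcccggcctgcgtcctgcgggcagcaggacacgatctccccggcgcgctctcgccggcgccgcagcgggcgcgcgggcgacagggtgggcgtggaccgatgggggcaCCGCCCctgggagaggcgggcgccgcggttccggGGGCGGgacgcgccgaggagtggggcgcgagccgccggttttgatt

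The AP-1 match of SPHK1 starts 71 bases before the transcript start and overlaps no other motif searched. AP-1 matches were found in 6.57% of 35116 promoters of the same length (chromosome 8 left out), Sp1 matches in 42.6%, matches to the CRE half-site TGACG in 21.2% and matches to the E-box CANNTG in 61.8%. UGCG held 3 Sp1 matches and none to the AP-1, CRE or E-box letters. The other 2 SPHK1 starts held 1 and 2 Sp1 matches, and 1 of them also held a CRE half-site. Of the members, 7 genes had a promoter in the table, with 11 starts, and the only other start with an AP-1 match belonged to SGPP2. A match describes these letters only, and which start these cells used was not measured.

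UGCG draws ceramide into glycosphingolipids. Its probe A_23_P123645 read 9.75, 9.60 and 9.48 in the SM30 controls and 10.89, 10.93 and 10.94 after SM30. In the AS30 sets it read 9.46, 9.51 and 9.35 in the controls and 10.17, 10.80 and 10.27 in treated cells at 3 h. At 22 h the controls read 8.98, 9.53 and 9.40 and the treated arrays 10.14, 9.45 and 10.21. Both sets at 3 h had every treated array above every control, and at 22 h treated array B fell among the controls.

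The log2 ratio of this probe was 1.31 after SM30 (0.80 to 1.82, limma adjusted p = 0.0135), 0.97 at 3 h after AS30 (0.46 to 1.48, limma adjusted p = 0.0589) and 0.63 at 22 h (0.12 to 1.14, limma adjusted p = 0.145). The second probe, A_23_P313389, gave 1.08 after SM30 (0.68 to 1.48, limma adjusted p = 0.0110), 0.90 at 3 h after AS30 (0.50 to 1.30, limma adjusted p = 0.0426) and 0.54 at 22 h (0.14 to 0.94, limma adjusted p = 0.118). The probes lie apart in the gene, at chr9:113735551-113735610 and chr9:113731709-113731768 of hg18, and had r = 0.953 with each other over the 18 arrays. In SM30 letter A, the pair on 1 slide, the probes gave 1.14 and 0.95, the lowest of the 3 letters for both. Letters B and C gave 1.325 and 1.459 with the first probe and 1.173 and 1.115 with the second. The part of the slides was not tested. At 22 h, letter B gave -0.09 and -0.01 while letters A and C gave 1.16 and 0.82 with the first probe and 1.01 and 0.64 with the second. Without letter B of that set both probes were called at 22 h, at 0.99 and 0.82.

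The UGCG response to SM30 minus that to AS30 at 3 h was 0.33 (-0.39 to 1.05) and 0.18 (-0.38 to 0.75) with the probes in the same order, and neither passed the test (limma adjusted p = 0.646 and 0.757). The 22 h response to AS30 minus the 3 h response was -0.34 (-1.06 to 0.38) and -0.35 (-0.92 to 0.21).

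CERK phosphorylates ceramide. Probe A_24_P62237 read 8.48, 8.15 and 8.36 in the SM30 controls and 8.88, 9.00 and 8.81 after SM30. It read 9.89, 9.51 and 9.67 in the AS30 controls of 3 h and 10.21, 10.00 and 10.03 in treated cells. At 22 h it read 9.43, 9.37 and 9.30 in controls and 9.65, 9.33 and 9.25 in treated cells. The 3 h sets had no overlap between treated and control arrays, and the 22 h set overlapped.

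The log2 ratio was 0.57 after SM30 (0.28 to 0.85, limma adjusted p = 0.0325, and 0.34 and still called with normexp), 0.39 at 3 h after AS30 (0.11 to 0.68, limma adjusted p = 0.115) and 0.04 at 22 h (-0.24 to 0.33, limma adjusted p = 0.879). After SM30 letters A, B and C gave 0.40, 0.85 and 0.45 with this probe, the lowest from letter A, the pair on 1 slide. The other probe, A_23_P211659, gave 0.45, 0.43 and 0.23 and was not called in any response (limma adjusted p = 0.187, 0.207 and 0.513), although its arrays also did not overlap at 3 h. The 2 probes had r = 0.192 with each other over the 18 arrays. They parted in the controls, where A_24_P62237 was 1.36 lower in the SM30 set than in the AS30 set of 3 h (limma adjusted p = 8.4e-05) and A_23_P211659 0.07 lower (limma adjusted p = 0.822). In this comparison of controls 26.8% of all probes were called, and A_24_P62237 was the only 1 of the 12 member probes among them. The control sets lay on separate slides, so control set and slide cannot be told apart there.

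ASAH1 frees sphingosine from ceramide in the lysosome, the step before the sphingosine kinases. Probe A_23_P216325 read 10.21, 9.88 and 10.08 in the AS30 controls of 22 h and 11.32, 10.65 and 11.39 after AS30. It read 10.32, 10.34 and 10.17 in the controls and 10.33, 10.10 and 9.96 in treated cells at 3 h. In the SM30 set it read 10.18, 10.52 and 9.79 in controls and 10.35, 10.29 and 10.44 after SM30. The 3 treated arrays of 22 h were the highest of the 18, and the groups of both 3 h sets overlapped.

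The log2 ratio of ASAH1 was 1.06 at 22 h (0.66 to 1.46, limma adjusted p = 0.0240), with letters at 1.11, 0.77 and 1.31, the last from the pair on 1 slide. It was 0.20 after SM30 (-0.21 to 0.60, limma adjusted p = 0.529) and -0.15 at 3 h after AS30 (-0.55 to 0.25, limma adjusted p = 0.625). The 22 h response minus the 3 h response to AS30 was 1.21 (0.64 to 1.78), with a p of 0.00104 before adjustment in limma and an adjusted p of 0.114. Only 2.65% of all probes had a higher difference. The second probe, A_24_P928637, was well above background on 5 of 18 arrays and did not pass the filter. With all its spots kept it read 2.87, 2.70 and 2.88 in the 22 h controls and 5.65, 2.75 and 5.53 in the treated arrays, so letters A and C were high and letter B was not.

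The remaining members had no called response. SPHK2, the second sphingosine kinase, read 11.13, 11.21 and 11.58 in the SM30 controls and 10.88, 11.05 and 11.15 after SM30, a log2 ratio of -0.28 (-0.53 to -0.03, limma adjusted p = 0.159), and its AS30 ratios were -0.04 and 0.06. SGPP1, an S1P phosphatase, had ratios of 0.19, -0.09 and 0.26 in the 3 responses, and the 2 probes of SGPL1, the lyase that ends the pathway, lay between -0.11 and 0.32. SPTLC2, a subunit of the enzyme that opens sphingolipid synthesis, had ratios from -0.70 to 0.13. The lowest came from 1 array, SM30 B, where probe A_23_P3146 read 6.60 against 8.64 to 9.64 on the other arrays. Without that pair the ratio was 0.12. Both SGPP2 probes were dim, well above background on 5 and 2 of 18 arrays, and no ratio is given. The reading farthest from the rest was 8.61 for A_24_P941217 in AS30 22 h C, where the other 17 arrays lay at 2.76 to 4.78.

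ACER1, the alkaline ceramidase of skin, was well above background on 9 of 18 arrays. It read 3.72 to 4.59 in the 6 arrays of the SM30 sets and 4.26 to 8.39 in the 12 arrays of the AS30 sets. It was well above background on 1 of 3 arrays in both SM30 groups, on 3 of 3 in both AS30 groups of 3 h, and on 0 of 3 controls and 1 of 3 treated arrays at 22 h. At 3 h after AS30, the set in which it was well above background on every array, the log2 ratio was -1.43 and was not called (limma adjusted p = 0.208). The ratios of the other sets compare readings mostly not well above background and give no size, and neither was called (limma adjusted p = 0.700 after SM30 and 0.976 at 22 h). Between the controls alone, ACER1 was called lower in the SM30 set than in the AS30 set of 3 h (limma adjusted p = 0.00371), where 11.1% of all probes were called lower.

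**Figure D2:**
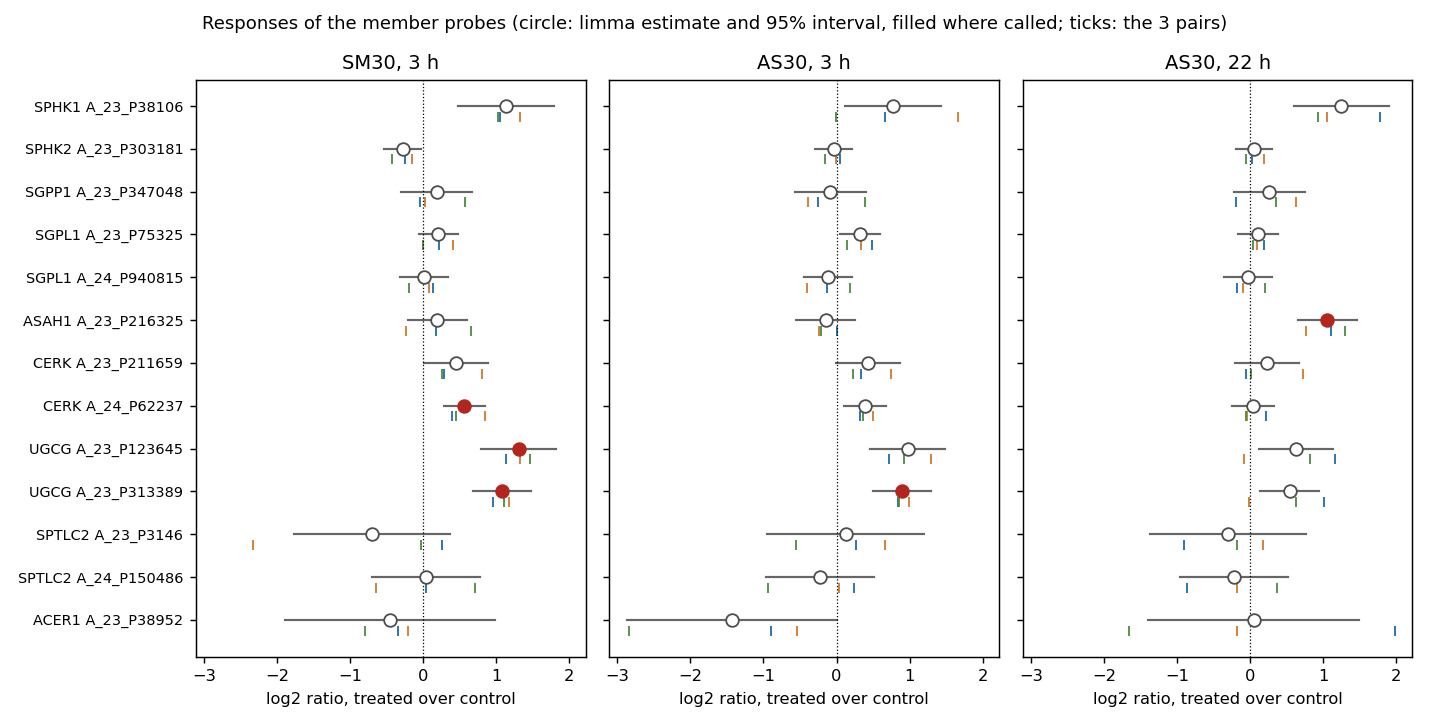
Log2 ratio of treated over control arrays (horizontal axis) for the 12 member probes that passed the filter and the ACER1 probe (vertical axis), in the 3 responses. Circles show the limma estimate with its 95% interval, filled where the adjusted p is under 0.05, and ticks the letters A (blue), B (orange) and C (green), so that UGCG and CERK are filled after SM30, 1 UGCG probe at 3 h and ASAH1 at 22 h after AS30.

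Counted over the set, 3 of 12 probes were called after SM30, all higher, where 7.49% of all probes were called, 4.35% higher and 3.13% lower. For AS30 1 of 12 was called at 3 h, against 2.52% of all probes (1.5% higher and 1.01% lower), and 1 of 12 at 22 h, against 3.58% (2.54% higher and 1.04% lower), both of them higher. Treated arrays lay wholly above controls for 5 of 12 probes after SM30, 4 of 12 at 3 h after AS30 and 2 of 12 at 22 h, where the shares over all probes were 19.2%, 13.2% and 12.8%. No member probe lay wholly below its controls, where the shares over all probes were 23.8%, 10.6% and 11.1%, and in either direction 43%, 23.8% and 23.9%. The median log2 ratio of the 12 was 0.20, 0.22 and 0.17, beside -0.05, 0.01 and -0.00 over all probes tested. The 12 probes stand for 8 genes, and the paired probes of UGCG share a target, so the counts are not of separate genes. None of the 12 was called in the differences between responses, where 0.014% of all probes were called between SM30 and AS30 and 0.0285% between 22 h and 3 h. At an unadjusted limma p under 0.05, 0 and 1 of the 12 differed, the 1 being ASAH1. The shares over all probes were 14.6% and 16.9%, so these counts do not stand out.

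The rest of sphingolipid metabolism was read from a list of 64 genes, of which 53 had 82 tested probes. After SM30 8 of 82 probes were called, 6 higher and 2 lower, which is near the 7.49% of all probes called there. At 3 h after AS30 6 of 82 were called, 5 higher and 1 lower, where 2.52% of all probes were called. At 22 h 7 of 81 were called, all higher, where 3.58% of all probes were called. The list's median ratio was 0.06, 0.09 and 0.26 in the 3 responses. In the class of glycosphingolipid genes 3 of 28 probes were called after SM30, 2 of 28 at 3 h after AS30 and 5 of 27 at 22 h, all higher, where 4.35%, 1.5% and 2.54% of all probes were called higher. A ratio above 0 was seen for 18, 18 and 25 of them, and for 43.7%, 51.4% and 49.5% of all probes. The class median was 0.10, 0.11 and 0.48, beside medians of -0.05, 0.01 and -0.00 over all probes. Several probes of the class share a gene. Its calls after SM30 came from A4GALT and B4GALT5 only, and those at 22 h from GM2A, HEXA and PSAP only. The counts are therefore not of separate genes.

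SPNS2, which exports S1P from cells, rose by 1.38 on the log2 scale after SM30 (letters 1.53, 1.55 and 1.04, limma adjusted p = 0.0326) and by 1.79 at 3 h after AS30 (letters 2.34, 1.85 and 1.19, limma adjusted p = 0.0296), and stood at 0.80 at 22 h (limma adjusted p = 0.167). The second SPNS2 probe did not follow. It stood at -0.18 after SM30 (letters 0.77, -0.84 and -0.48), where it was well above background on 2 of 3 treated and 2 of 3 control arrays, and was called in no response. S1PR5, an S1P receptor, fell by 1.65 after SM30 (letters -1.82, -1.62 and -1.51, limma adjusted p = 0.00366) and by 1.12 at 3 h after AS30 (letters -1.34, -1.29 and -0.74, limma adjusted p = 0.0298). With normexp background correction (offset 50) these S1PR5 ratios shrank to -0.42, still called, and -0.25, not called, and the 3 h AS30 call held in 12 of 20 alternatives. At 22 h S1PR5 stood at 0.20 (limma adjusted p = 0.589), and the 22 h response minus the 3 h response was 1.32 (limma adjusted p = 0.114). PPAP2A, a lipid phosphate phosphatase, rose by 0.75 at 22 h (limma adjusted p = 0.0196), when S1PR2, another receptor, stood at -0.81 with 1 probe (limma adjusted p = 0.108) and 0.72 with the other (limma adjusted p = 0.0943).

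Downstream of UGCG, B4GALT5 adds galactose to glucosylceramide and A4GALT makes globotriaosylceramide. A4GALT rose by 1.01 after SM30 (limma adjusted p = 0.0127) and by 1.16 at 3 h after AS30 (limma adjusted p = 0.0184). B4GALT5 rose after SM30 with both probes, by 0.65 and 0.61, and at 3 h after AS30 with 1 probe, by 0.59 (limma adjusted p = 0.0365), the other standing at 0.42. With normexp the A4GALT ratios were 0.49 and 0.55, both called. At 22 h A4GALT stood at 0.45 and the B4GALT5 probes at 0.26 and 0.01, none called.

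GM2A, the activator protein of ganglioside breakdown, rose at 22 h with 3 probes, by 0.69, 0.83 and 0.77 (limma adjusted p = 0.0427, 0.0400 and 0.0234). The first 2 of these were well above background on 1 of the 3 control arrays and on all 3 treated arrays. HEXA, a subunit of beta-hexosaminidase, rose by 0.81 (limma adjusted p = 0.0403), and PSAP, the precursor of the saposins that assist lysosomal hydrolases, by 0.73 (limma adjusted p = 0.0408). Letter B gave the smallest of the 3 ratios in each of these probes, at 0.34 to 0.55, as it did for ASAH1. With normexp the GM2A ratios were 0.21, 0.25 and 0.31, the first no longer called, and over the alternatives the HEXA call held in 11 of 20 and the PSAP call in 9 of 20. The group mean of CD68, given above, was highest in the treated arrays of 22 h. Its lowest array there read 10.23, below the highest treated array of 3 h after AS30, at 10.35. In the 3 h responses these GM2A, HEXA and PSAP probes lay between -0.04 and 0.39 and were not called. None of their differences between 22 h and 3 h passed the test (limma adjusted p = 0.161 to 0.513). The other HEXA and PSAP probes stood at 0.70 and 0.66 at 22 h and were not called (limma adjusted p = 0.0757 and 0.0591). A further GM2A probe stood at 0.35 there, from letter C only.

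In synthesis, FA2H, which hydroxylates the fatty acid of ceramide, rose by 1.25 after SM30 (limma adjusted p = 0.0104), and KDSR, the reductase after serine palmitoyltransferase, by 0.87 (limma adjusted p = 0.0279). Both stood lower after AS30 at 3 h, at 0.48 and 0.46, and were not called there. The SM30 response of FA2H minus its AS30 response was 0.77 (0.12 to 1.41, limma adjusted p = 0.287). In that difference 0 of 82 probes of the list were called, where 0.014% of all probes were called. In sphingomyelin metabolism SMPD3, a neutral sphingomyelinase, fell by 1.34 after SM30 (limma adjusted p = 0.0196) and stood at -1.04 at 22 h after AS30 (limma adjusted p = 0.0589). SAMD8 and SGMS2, of the sphingomyelin synthase family, rose by 0.72 and 0.59 at 3 h after AS30 (limma adjusted p = 0.0327 and 0.0495). The SAMD8 call held in 10 of 20 alternatives and the SGMS2 call in 4 of 19, and with normexp they stood at 0.26 and 0.16. The SMPD3 ratio after SM30 was -0.39 with normexp, still called.

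Among the largest ratios that were not called, SMPD4 stood at -2.01 after SM30 through array B alone, whose letter gave -5.89 against -0.24 and 0.11 (limma adjusted p = 0.230), and ST3GAL5 stood at -0.57 at 3 h after AS30. SMPDL3A was called at 22 h with 1 probe (limma adjusted p = 0.0294), but this value came from letter C only and the probe was not well above background on any control array, so no size is given. Its other probe stood at 0.93 (limma adjusted p = 0.0934).

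**Figure D3:**
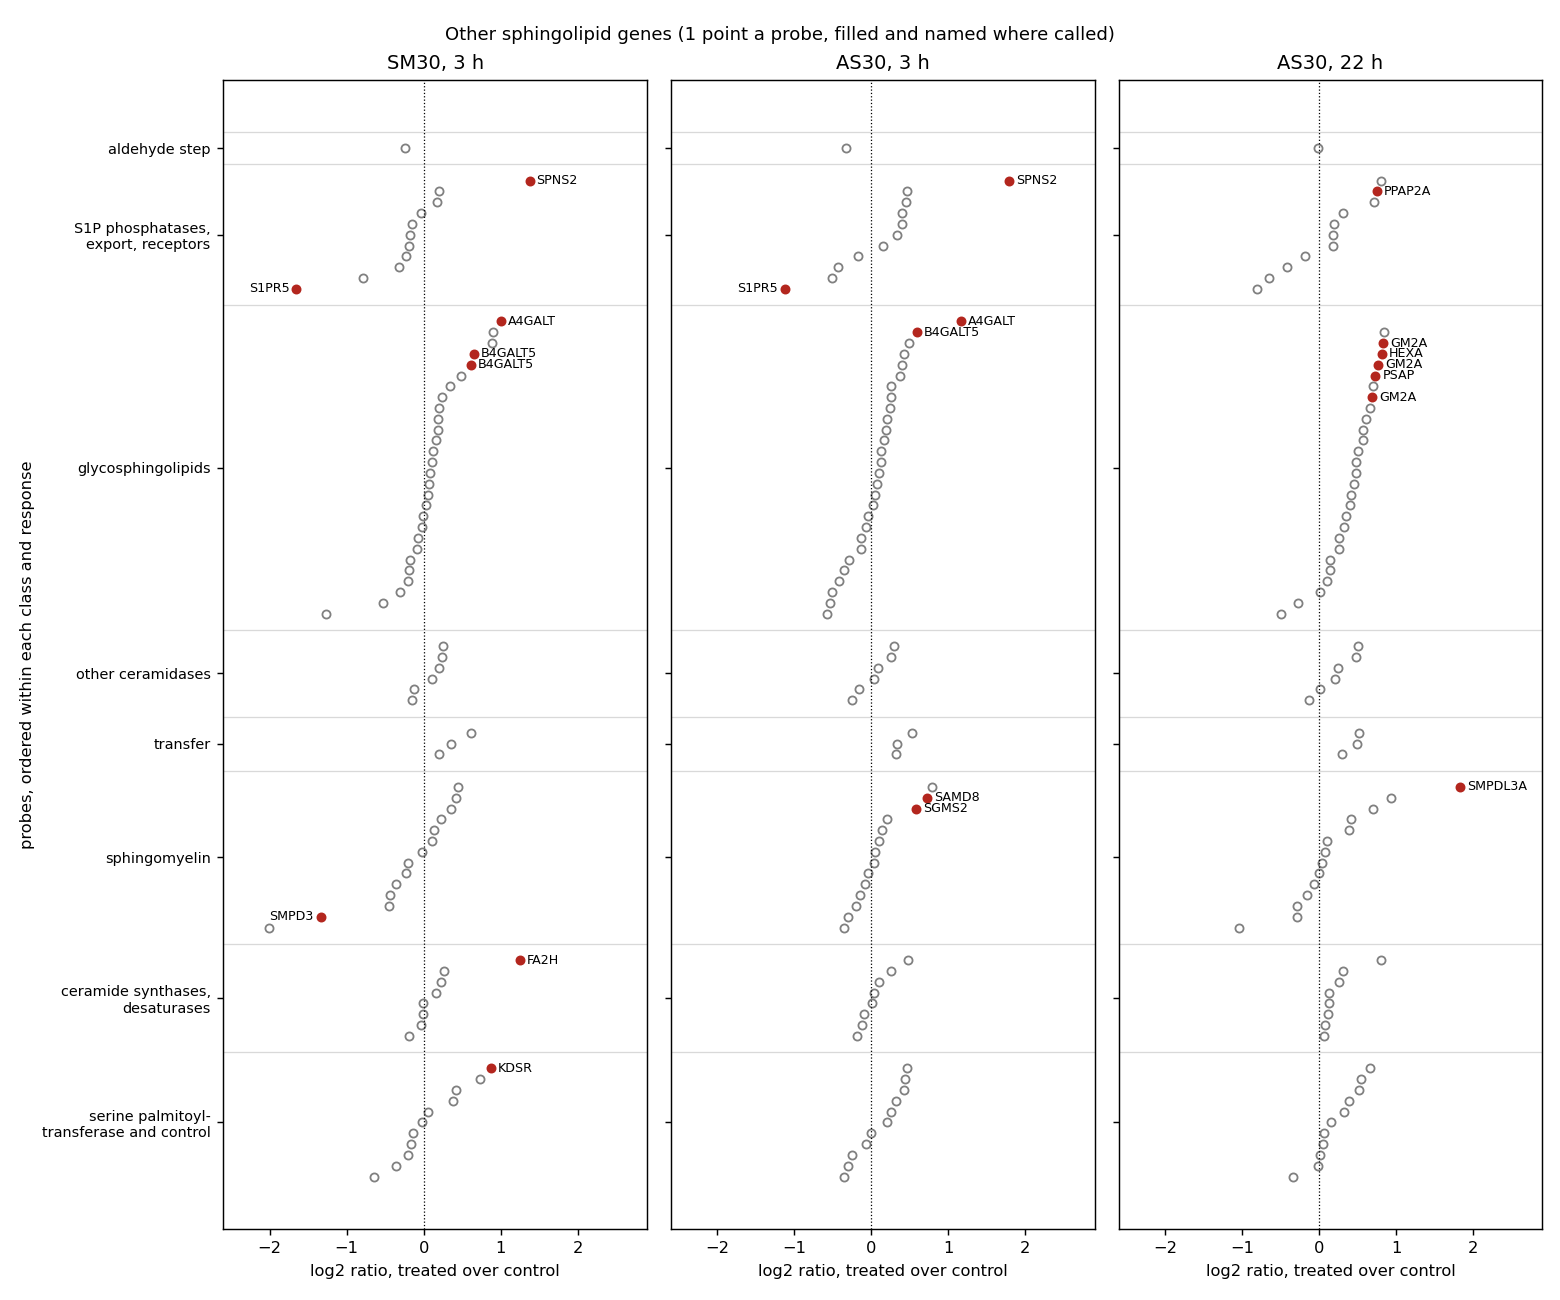
Log2 ratio of treated over control arrays (horizontal axis) for each tested probe of the other sphingolipid genes, ordered by ratio inside 8 functional classes (vertical axis), in the 3 responses. Filled points carry the gene name and have a limma adjusted p under 0.05, and the SMPDL3A point at 22 h rests on 1 pair of arrays.

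The calls were read beside the slides and the choice of pairs. With slide as a fixed block no member probe was called in any response, but the layout leaves these ratios to single arrays. SM30 B and C had a slide of their own, so the SM30 ratio is that of SM30 A alone over its 3 controls, 1.28 and 1.02 for UGCG, 1.03 for SPHK1 and 0.55 for CERK A_24_P62237. At 3 h after AS30 the slides of treated and control arrays were linked only through AS30 22 h controls A and B, and the ratio was 0.42 and 0.45 for UGCG and 0.38 for SPHK1. At 22 h the ratio is that of the 3 treated arrays over control C alone, 0.69 for SPHK1 and 1.04 for ASAH1. These values therefore say nothing of stability. Leaving out any 1 of the 3 SM30 pairs also left no member called after SM30, with UGCG at 1.23 to 1.39 for A_23_P123645. The share of all probes called after SM30 fell there from 7.49% to 1.98% without pair A, 1.01% without B and 1.04% without C. The UGCG call at 3 h after AS30 was lost without any 1 SM30 pair, AS30 3 h A or B, or AS30 22 h C, with ratios of 0.85 to 0.92. ASAH1 at 22 h was called in 16 of 20 alternatives, with ratios from 0.80 to 1.21, and lost its call with slide as a fixed block and without SM30 A, AS30 22 h A or AS30 22 h C. SPHK1 was called in 7, 2 and 6 of the 20 in the order SM30, AS30 at 3 h and AS30 at 22 h. Its 3 h ratio after AS30 was 1.16 and called without letter C of that set, and 0.32 without letter B. The share of all probes called at 3 h after AS30 moved from 2.52% to 10.7% without letter C and to 0.285% without letter B.

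**Figure D4:**
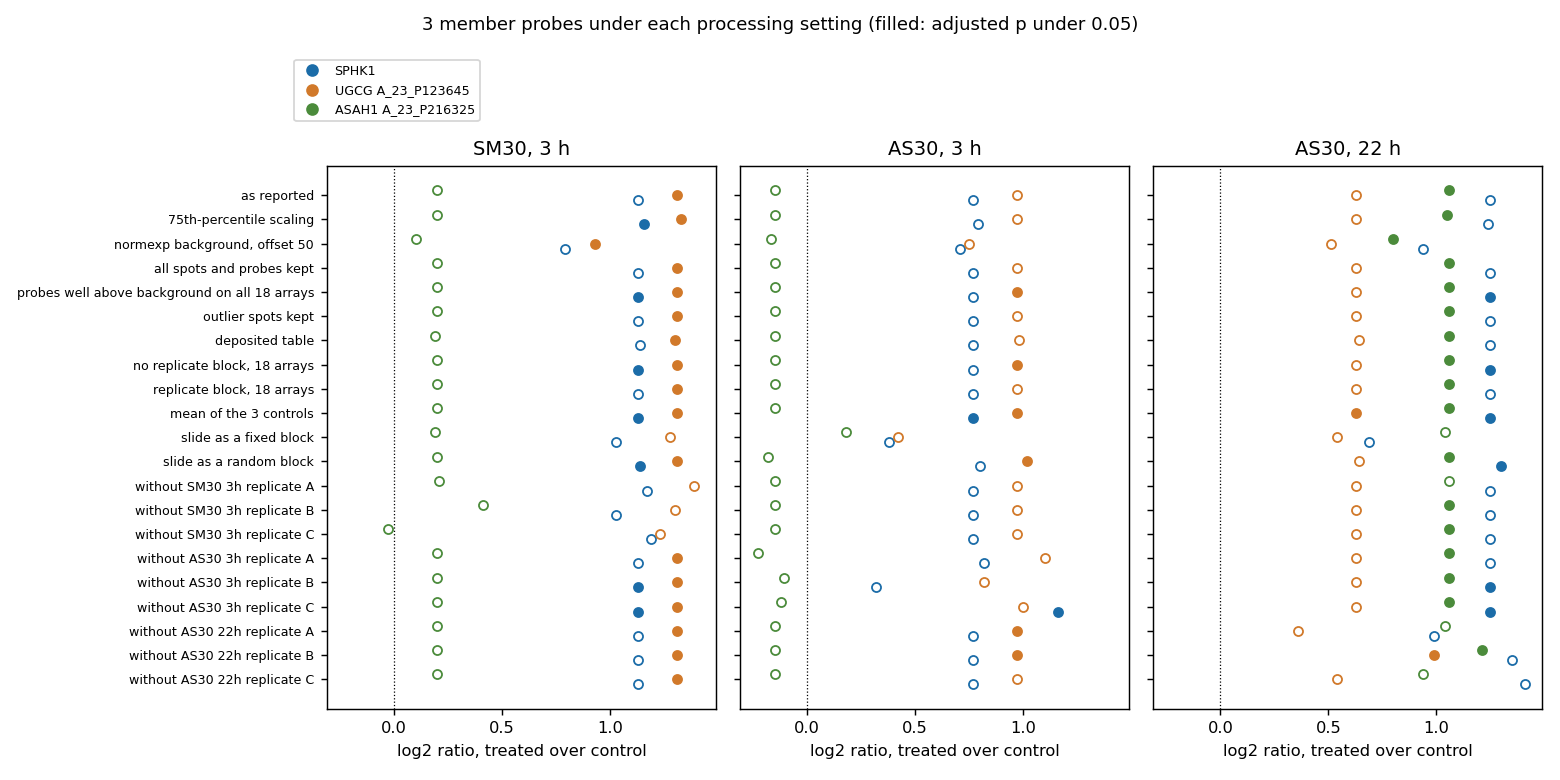
Log2 ratio of treated over control arrays (horizontal axis) for SPHK1, 1 UGCG probe and ASAH1 under the reported processing and 20 alternatives (vertical axis), in the 3 responses, with filled points where the limma adjusted p is under 0.05. SPHK1 stays above 0 in every setting, at 0.79 to 1.19 after SM30, 0.32 to 1.16 at 3 h and 0.69 to 1.41 at 22 h after AS30. Some settings, such as leaving out a pair of another response, cannot change a ratio. The 0.69 comes from slide as a fixed block, which sets the treated arrays against control C alone and says nothing of stability.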

How the data were processed

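Gene expression in A549 cells was measured on 18 one-colour Agilent arrays. The authors deposited Feature Extraction files with spot intensities on a linear scale, and a table of quantile-normalized intensities of the same arrays, used here as an alternative. Columns not used numbered 0. Groups come from the labels.

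The log2 processed signal of non-control spots was quantile normalized. Signals whose spot lacked the scanner software's flag for a positive and significant signal became missing, outlier-flagged spots were dropped although the methods name no such step, replicate spots were averaged and probes over 33% missing were removed, which left 28665 of 41000. The log2 ratio of each treated array to its same-letter control entered a limma fit with 3 classes, 6 residual degrees of freedom and Benjamini-Hochberg adjustment. Levels of controls were compared in a limma fit of the 18 arrays in 6 groups. The methods call the 3 arrays of a group biological replicates. On simulated data the paired fit recovered 55 of 100 probes changed by 1 and 87 of 100 changed by 2 on the log2 scale for SM30, with 5 false calls of 22830. The fit of the 18 arrays recovered 64 and 91, with 4 false calls. The simulated noise was independent between probes and arrays, without slide or pair effects. It therefore does not measure false calls under the slide layout of these arrays. No 2 arrays held identical values, and 0 spots were saturated.

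Named were every member probe, the other sphingolipid probes called in a response with the 2 largest rises and falls of each, the 5 genes most correlated with SPHK1, and GAPDH and ACTB. Second probes that differed were added after their values were seen. Members and lists were chosen with earlier results of these data known. Alternatives were other normalization, background, filters, the deposited table, pairing, controls, slide and each pair left out. Probe positions are on hg18 from the files, promoters from RefSeq on GRCh38.p14. Tools were limma 3.58.1 and statmod 1.5.0 under R 4.3.3, data.table (1.17.8), and Python 3.11.15 with matplotlib 3.10.9 for figures.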

Additional observations from a re-analysis of the deposited data

How the results depend on the processing

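The log2 ratios kept their sign for SPHK1 and UGCG in each response, for CERK at 3 h and for ASAH1 at 22 h in all 20 alternatives, while the number of calls moved. Of the alternatives, slide as a fixed block leaves the ratios to 1 or 2 arrays, and letter as a replicate block repeats the paired fit, so neither speaks to stability. For these probes, measured on all 18 arrays, the mean of the 3 controls and no replicate block return the reported ratio. A pair left out of 1 response also leaves the ratios of the other responses unchanged. In those settings the sign could not change. Counts below are of member probes and then of other sphingolipid probes called, ordered SM30, AS30 3 h and AS30 22 h. They were 3, 1 and 1 and 8, 6 and 7 as reported. With all spots and probes kept, AS30 at 3 h had 0 and 1, and 22 h had 2 of the other probes, where 0.668% and 1.24% of all probes were called. With only probes well above background on 18 arrays, members called were 2 at 3 h and 2 at 22 h after AS30, where 4.6% and 5.99% of all probes were called. Ratios to the mean of the 3 controls gave 5, 5 and 5 members and 25, 26 and 36 other probes, where 33%, 34.5% and 31.1% of all probes were called, and this setting ignores the spread of the controls. Slide as a fixed block left 0, 0 and 0 members and 1, 0 and 0 others (1.16%, 0.207% and 0.104% of all probes called), and as a random block (correlation -0.0826) AS30 had 3 and 2 members and 13 and 13 others (13.6% and 6.82% of all probes). Leaving out 1 pair gave 0 to 4, 0 to 2 and 0 to 3 members and 1 to 10, 0 to 7 and 0 to 16 others. The lowest counts of others came without SM30 B or C, without AS30 3 h B, and without AS30 22 h A or C, where 1.01% and 1.04%, 0.285%, and 0.00716% and 0.684% of all probes were called, and the 16 came without AS30 22 h B (4.29%).

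Correlations of same-letter deviations from the group means ran from -0.091 to 0.48, the highest in letter A of AS30 at 3 h. Different letters were not compared, so whether letters pair the arrays was not tested. The reported calls come from the fit that pairs by letter. With letter as a replicate block over the 18 arrays 3, 1 and 1 member probes were called. This fit is the paired fit in another form, so it returns the same calls and is no separate check among the 20 alternatives. With no replicate block 4, 2 and 2 were called, where 8.78%, 4.59% and 4.99% of all probes were called.

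Signs of member probes changed only for ratios that were not called. With slide as a fixed block the ratios rest on single arrays, namely SM30 A, AS30 22 h controls A and B for the 3 h set, and control C at 22 h, so their sign changes are those of 1 or 2 arrays. Ratios at 3 h after AS30 became 0.10 for SPHK2, 0.70 for SGPP1, 0.24 for SGPL1 A_24_P940815, 0.18 for ASAH1 and 0.43 for SPTLC2 A_24_P150486. At 22 h they became -0.00 for SPHK2, 0.16 and -0.01 for SGPL1, 0.33 for SPTLC2 A_24_P150486 and -0.10 for ACER1, the SM30 ratio of SPTLC2 A_23_P3146 became 0.06, and the 22 h minus 3 h difference of UGCG A_23_P123645 became 0.11. Scaling to the 75th percentile gave 0.00 for SPHK2 at 3 h, and for SPTLC2 A_24_P150486 after SM30 normexp gave -0.12 and slide as a random block -0.00.

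With 1 pair left out, the SM30 ratio ranged from -0.01 to 0.30 for SGPP1, -0.05 to 0.11 for SGPL1 A_24_P940815, -0.03 to 0.41 for ASAH1, -1.18 to 0.12 for SPTLC2 A_23_P3146 and -0.30 to 0.37 for SPTLC2 A_24_P150486. The AS30 ratio at 3 h ranged from -0.08 to 0.02 for SPHK2, -0.32 to 0.07 for SGPP1, -0.27 to 0.03 for SGPL1 A_24_P940815, -0.14 to 0.47 for SPTLC2 A_23_P3146 and -0.45 to 0.14 for SPTLC2 A_24_P150486. At 22 h it ranged from -0.01 to 0.11 for SPHK2, -0.14 to 0.05 for SGPL1 A_24_P940815, -0.05 to 0.09 and -0.02 to 0.37 for CERK, -0.52 to 0.10 for SPTLC2 A_24_P150486 and -0.92 to 0.90 for ACER1. The SM30 minus AS30 difference of SPHK1 ranged from -0.03 to 0.81 and the 22 h minus 3 h difference of UGCG A_23_P123645 from -0.61 to 0.02. The cause was not tested. Signal over background limits SGPP2, ACER1 and the second ASAH1 probe, and ACER1 had no value where only probes well above background on 18 arrays were kept.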
